A study of Homo sapiens with 12 samples.

Results

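The nuclear-encoded genes of the respiratory chain were taken from a table of expression values by their symbols, as every entry that begins with NDUF and a letter, UQCR, COX and a digit or ATP5 and a letter, or that is SDHA to SDHD. The rule found 112 of 26125 entries. They were sorted from textbook knowledge into 75 subunits of complexes I to V, 19 assembly factors, 9 paralogs or retrocopies of subunits, and 9 pseudogene, antisense or readthrough entries. RNA was sequenced in 12 libraries of Caco-2 cells, which derive from a human colorectal tumour and, once confluent, differentiate into a sheet resembling small-intestinal enterocytes. The cells stood on transwell inserts for 21 days and then received HBSS buffer with HEPES and nothing else (control), the bacterium Bacillus subtilis CW14 (CW14), 15 µmol/L apical ochratoxin A (OTA), or toxin plus bacterium (combined), with 3 libraries per group. Ochratoxin A is a mould toxin of food, and the series asks about CW14 as a probiotic that could lessen the toxin's harm to the epithelial barrier. The labels give no exposure time, and Caco-2 is a single tumour line.

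The respiratory chain of the inner mitochondrial membrane passes electrons from NADH, through complex I, and from succinate, through complex II, to ubiquinone, then through complex III and cytochrome c to complex IV, which reduces oxygen. Complexes I, III and IV pump protons, and complex V, the ATP synthase, uses their return to make ATP. Most subunits are encoded in the nucleus and imported, a smaller core is encoded in mitochondrial DNA, and assembly factors insert cofactors and join the modules without staying in the finished enzyme. Enterocytes draw on this chain for nutrient uptake and for keeping the barrier.

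Of the 112 members, 99 had a mean of at least 1 FPKM (fragments scaled to transcript length and to library size) and were tested: 74 of 75 subunits, all 19 assembly factors, 1 of 9 paralogs or retrocopies and 5 of 9 other entries. Enterocyte markers were present, with EPCAM at 403 to 707 FPKM and CDH17 at 203 to 398 FPKM, but sucrase-isomaltase (SI) was between 0 and 0.148 FPKM. Of the 3 immune markers, PTPRC was listed at 0 in all libraries. The summed immune markers were 13.4 to 17.5 FPKM in the combined group and 6.51 to 9.76 FPKM in the other groups' libraries, nearly all of it CD14. The 3 stromal markers summed to 3.32 to 5.88 FPKM in the combined group and 1.59 to 3.15 FPKM in the other libraries. The part of either in the results was not tested. In bulk RNA, fewer cells of a type and less RNA per cell cannot be told apart. Nothing in the labels says that replicates were separate cultures, so p-values measure the spread between these libraries, which may be technical.

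Combined replicate 3 stood apart from the other libraries. It had the highest value of the 12 libraries in 61 of the 99 tested members (61.6%), against 30.9% of all genes tested. Its values exceeded the mean of combined replicates 1 and 2 by a median of 0.70 on the log2 scale over the members, against 0.02 over all genes. The excess was more than 1 in 35 of the 99 members, against 10.9% of all genes. For complex IV subunit COX4I1, FPKM was 287, 228 and 783 in combined replicates 1 to 3, and for the complex I subunit NDUFS6 it was 28.7, 27.4 and 152. Both genes were far higher in that single library than in any of the other 11. It also had the lowest relative depth (0.471, with control replicate 1 at 1), the largest residual SD (0.588, against 0.305 to 0.424), and deviations that followed GC content (rho = 0.50) and transcript length (rho = -0.37) over all genes, descriptions over genes that are not independent. The tested subunits were short, with a median transcript length of 752 bases against 2401 bases for all genes tested, and their median GC content was 49.9% against 50%. Whether length or GC content sets the high values of this library was not tested. Results that include the combined group are therefore given with and without it.

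In the controls, the nuclear subunits of complex IV were the most abundant. The median over a complex's tested subunits, each taken as its mean FPKM over the 3 controls, was 93.4 FPKM for complex IV, 41.0 for complex V, 28.5 for complex II, 24.2 for complex III and 23.6 for complex I. Levels within a complex differed widely although the subunits are needed in fixed proportions. In complex II, the membrane anchor SDHD was at 355 ± 33.1 FPKM and the other anchor SDHC at 40.3 ± 3.25, while the flavoprotein SDHA was at 16.7 ± 1.91 and the iron-sulfur subunit SDHB at 7.10 ± 1.74 (± is the SD of 3 libraries, n = 3, throughout). In complex IV the range ran from COX6C at 11.3 to COX8A at 524 ± 45.6 FPKM, and in complex V from ATP5O at 16.7 ± 5.04 to ATP5L at 141 ± 9.24 FPKM. In complex III, UQCRH, the hinge protein by cytochrome c1, was the highest subunit at 267 ± 38.5 FPKM. Its near-identical retrocopy UQCRHL was listed at 788 ± 94.0 FPKM, so the split of reads between this pair is uncertain.

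**Figure D1:**
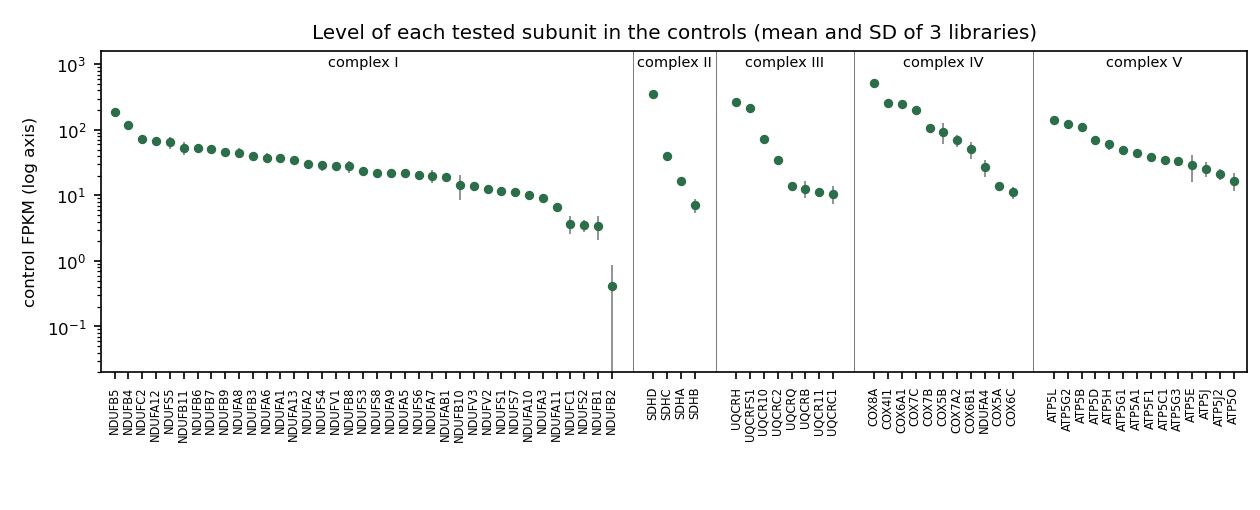
Mean FPKM of each of the 74 tested subunits in the 3 control libraries (log axis, points), with the SD as bars, ordered by level within complexes I to V. Levels run from 0.411 FPKM for NDUFB2, whose SD exceeds its mean so that its bar reaches down to the floor of the axis, to 524 FPKM for COX8A.

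Some subunits were listed near 0. ATP5I, a membrane subunit of the ATP synthase with a transcript of 365 bases, was listed at 2.13 FPKM in control replicate 1 and at 0 in the other 11 libraries. NDUFB2, an accessory subunit of complex I, was at 0, 0.918 and 0.316 FPKM in the controls. An exact 0 in such a table can be a failed estimate, and the level of these genes is read here no further than as listed.

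Where a subunit has tissue-specific forms, the ubiquitous form carried the signal. COX4I1 was at 254 ± 14.3 FPKM in the controls, and COX4I2 was listed at 0 in 9 of 12 libraries, with the highest value at 0.622 FPKM. COX6A1 was at 251 ± 6.01 FPKM in the controls and COX8A at 524 ± 45.6 FPKM, whereas the muscle form COX6A2 and the testis form COX8C were listed at 0 in all 12. COX6B1 was at 51.2 ± 15.3 FPKM against at most 0.669 FPKM for COX6B2 in any library. COX7A2 was at 69.4 ± 15.3 FPKM in the controls against at most 1.09 FPKM for COX7A1, the heart and muscle form. For the c ring of the ATP synthase, whose 3 genes encode the same mature protein, the controls had 123 ± 12.9 FPKM of ATP5G2, 48.6 ± 4.35 of ATP5G1 and 33.4 ± 3.86 of ATP5G3. The order of these 3 genes held without overlap between their control libraries.

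The first comparison, OTA against control, concerns the toxin without bacteria. The median subunit of each of the 5 complexes lay higher with OTA, by a log2 difference of 0.23 to 0.42. The median log2 difference was 0.33 over the 74 tested subunits and 0.03 over all genes, and 70 of the 74 had a difference above 0. By the limma test with Benjamini-Hochberg adjustment over all genes, 7 subunits rose and none fell, of 74, while 17.7% of all genes were called (4.82% higher and 12.9% lower). For all 99 members the counts were 9 higher and 2 lower. At an unadjusted p under 0.05 there were 18 of 74 subunits, beside 3981 of 12928 genes. All 3 OTA libraries lay above all 3 controls in 39 of 74 subunits and below them in none, where 24.4% of all genes had such a range higher and 25.7% lower.

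The step was present in each OTA library. Against the control mean, the median over the 74 subunits was 0.32, 0.28 and 0.40 in OTA replicates 1 to 3 and 0.10, -0.02 and -0.08 in the controls. Of the 74 subunits, 56, 52 and 59 were above all 3 controls in OTA replicates 1 to 3. In CW14 replicates 1 to 3 these counts were 14, 11 and 6. They have no share of all genes per library beside them. By complex, the median of the fitted differences was 0.42 for V (14 tested), 0.36 for I (37), 0.31 for III (8), 0.23 for IV (11) and 0.23 for II (4). In each of the 5 complexes, the medians of the 3 OTA libraries were above those of the 3 controls. Complex IV was less clear on the FPKM scale: its median FPKM was 120, 85.3 and 65.9 in the controls and 109, 117 and 104 with OTA, and these ranges overlapped. No test was made between complexes. Depth differed among these libraries, from 0.658 to 1.60 relative to control replicate 1 with OTA and from 0.911 to 1.58 in the controls, and the groups overlapped in it. The 9 enterocyte markers summed to 1317 to 1451 FPKM with OTA and 985 to 1222 FPKM in the controls, without overlap, and their part in the step was not tested. The sum was 911 to 1205 FPKM with CW14 and 837 to 1014 FPKM in the combined group.

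**Figure D2:**
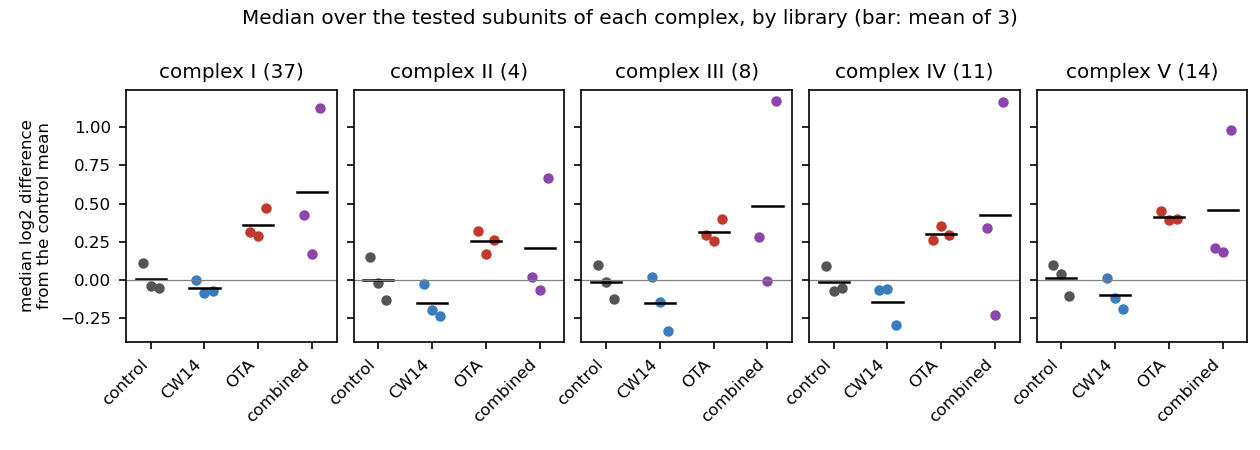
Median log2 difference from the control mean over the tested subunits of each complex (number in brackets), for each of the 12 libraries (points), with the mean of 3 libraries as a bar. In every complex the 3 OTA points lie above the 3 control points, and combined replicate 3 is the highest point, at 0.67 for complex II and 0.98 to 1.17 for the others.

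Scaling between libraries moved the size of the step and not its direction. Centring each library on its median raised the median of all genes in OTA against control from 0.03 to 0.13 and that of the subunits to 0.44, and the subunits stayed above all genes. Members called higher and lower numbered 14 and 2 after quantile normalization, 16 and 2 after centring, and 18 and 2 after upper-quartile scaling. The share of all called genes that were higher rose from 27.2% to 46.2% with centring. Correction for GC content and length lowered the subunits' median to 0.25 and raised that of all genes to 0.09, which narrowed the gap between them. Under it, 10 subunits were called higher and none lower. The counts under these scalings and this correction have no share of all genes beside them. They are not read as particular to the members. Leaving out combined replicate 3, which enters this comparison through the shared estimate of spread alone, gave 25 subunits higher and none lower, with 33.8% of all genes called.

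Complex I, the NADH dehydrogenase, had 4 of 37 subunits higher and none lower, where 4.82% of all genes were called higher and 12.9% lower. NDUFB4, an accessory subunit of the membrane arm, was at 121, 120 and 118 FPKM in the controls and 185, 188 and 200 with OTA. All OTA libraries were above all controls, and the log2 difference was 0.67 (SE 0.12, limma adjusted p = 0.00225). NDUFB6, also of the membrane arm, was at 57.3, 51.6 and 49.9 FPKM in the controls and 85.3, 81.6 and 92.7 with OTA, a log2 difference of 0.70 (SE 0.18, limma adjusted p = 0.0193). NDUFAB1, the mitochondrial acyl carrier protein, rose from 18.9 ± 1.01 to 30.0 ± 2.02 FPKM (log2 0.64, SE 0.15, limma adjusted p = 0.0129). The groups did not overlap in either gene. The fourth, named here after its value was seen, was NDUFV1, the flavin-binding core subunit that accepts electrons from NADH, at 27.8 ± 4.29 FPKM in the controls and 42.4 ± 0.924 with OTA (log2 0.60, SE 0.17, limma adjusted p = 0.0265). By module, the NADH-binding part had a median log2 difference of 0.39 over 10 subunits, the quinone-reducing part 0.20 over 5 and the proton-pumping part 0.36 over 20.

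Complex II, which is also the succinate dehydrogenase of the citric acid cycle, had 1 of 4 subunits higher, beside 4.82% of all genes. SDHC was at 44.0, 38.9 and 37.9 FPKM in the controls and 55.5, 55.7 and 64.0 with OTA. The OTA libraries were all higher, with a log2 difference of 0.52 (SE 0.12, limma adjusted p = 0.00959). The call was lost under the correction for GC content and length, with and without a replicate block, and without OTA replicate 3, where the limma adjusted p rose to as much as 0.284. The log2 difference was between 0.34 and 0.63 in all 23 alternatives. SDHA, SDHB and SDHD had log2 differences of 0.17, 0.26 and 0.19, with limma adjusted p from 0.521 to 0.701, and their groups overlapped.

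Complexes III and IV had no called subunit in 8 and 11 tested. At an unadjusted p under 0.05 there were 2 each, beside 3981 of 12928 genes. With sample quality weights in limma, 6 and 4 subunits of these complexes were called higher. No share of all genes under weights is set beside these counts, so they are not read as particular to the complexes. In complex III, UQCRH was at 306 ± 14.3 FPKM with OTA (log2 0.21, SE 0.24) and the ubiquinone-binding subunit UQCRB at 16.8 ± 0.926 against 12.7 ± 3.73 (log2 0.41, SE 0.28), both overlapping with the controls. In complex IV, COX8A was at 504, 492 and 576 FPKM in the controls and 797, 728 and 691 with OTA. Its ranges were apart, and the limma adjusted p was 0.0909 for a log2 difference of 0.50 (SE 0.19). COX4I1, the regulatory subunit that binds ATP, was at 254 ± 14.3 FPKM in the controls and 298 ± 16.4 with OTA (log2 0.23, SE 0.33, limma adjusted p = 0.679). COX5A was the one complex IV subunit below 0, at a log2 difference of -0.07 (SE 0.24).

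Complex V had 2 of 14 subunits higher and none lower, where 4.82% of all genes were called higher and 12.9% lower. In 11 of 14 all OTA libraries were above all controls, as against 24.4% of all genes. ATP5C1, the gamma subunit of the rotating central stalk, was at 32.3, 36.1 and 37.7 FPKM in the controls and 53.4, 55.9 and 55.5 with OTA. This 1.55-fold step had no overlap, with a log2 difference of 0.62 (SE 0.14, limma adjusted p = 0.00781). ATP5B, the catalytic beta subunit, went from 113 ± 7.99 to 151 ± 8.53 FPKM (log2 0.42, SE 0.12, limma adjusted p = 0.0253). All 3 c-ring genes had OTA ranges above the controls, with log2 differences of 0.25 (ATP5G1), 0.45 (ATP5G2) and 0.38 (ATP5G3) and limma adjusted p of 0.602, 0.265 and 0.127.

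**Figure D3:**
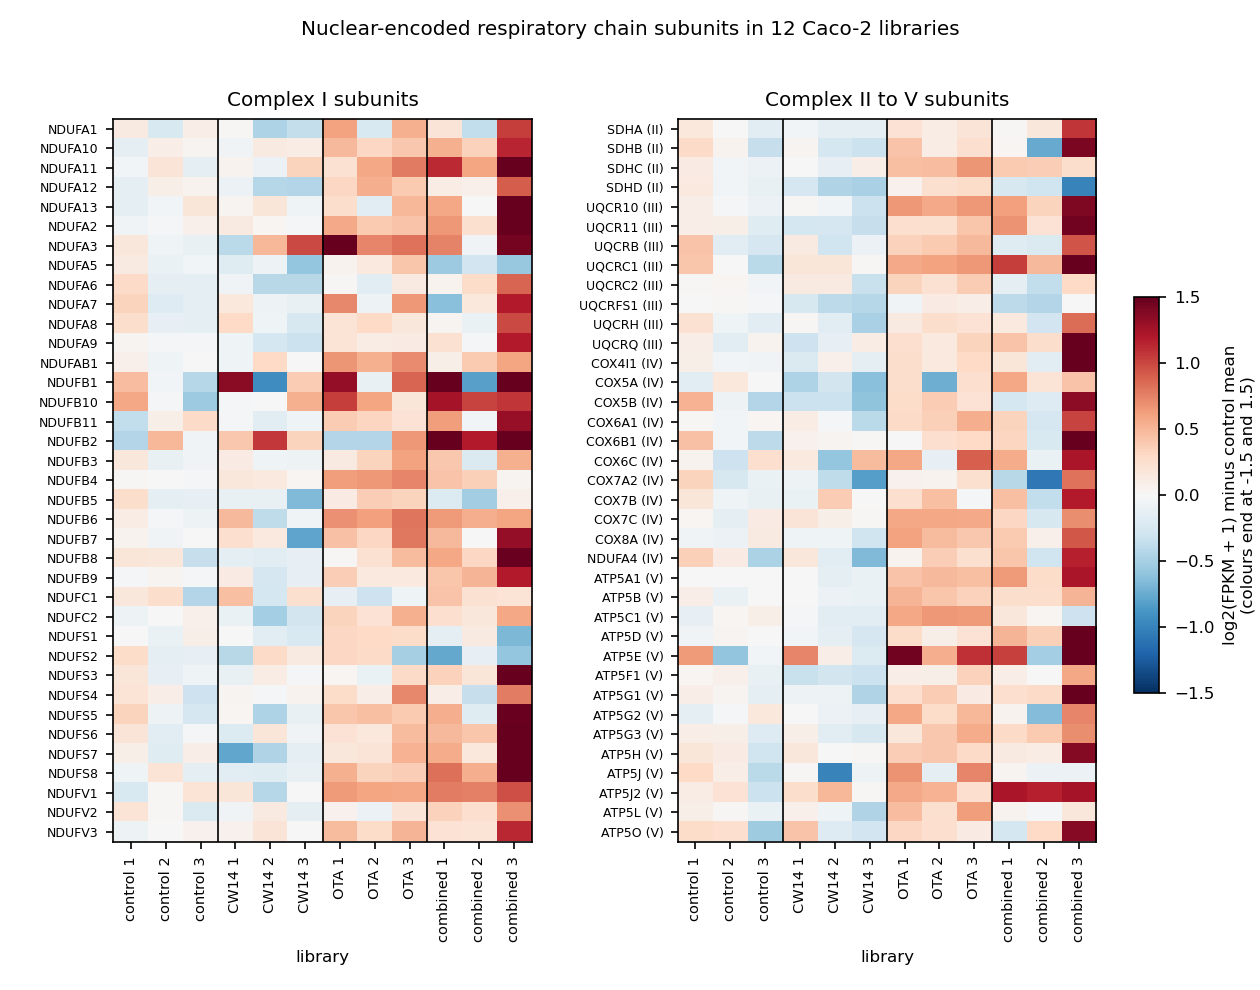
log2(FPKM + 1) minus the control mean for the 37 complex I subunits (left) and the 37 tested subunits of complexes II to V (right), rows by gene and columns by library, on a colour scale that ends at -1.5 and 1.5. Most rows are red in the 3 OTA columns and darkest in combined replicate 3. Of the 74 subunits, 52 to 59 are above all controls in the OTA columns and 6 to 14 in the CW14 columns.

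Of 19 assembly factors, 2 rose and 1 fell, beside 17.7% called over all genes, and their median log2 difference was 0.24. Their median FPKM moved the other way, at 13.36, 13.16 and 12.54 in the controls and 10.38, 11.02 and 10.87 with OTA. These ranges did not overlap, although 14 of the 19 factors had a log2 difference above 0. A median of FPKM follows the factors of middle level, so it is not read as a direction of the class. When combined replicate 3 was left out, 4 rose and 2 fell, beside 33.8%. COX19, a small intermembrane-space protein needed to build complex IV, was at 15.5, 18.4 and 18.7 FPKM in the controls and 10.1, 11.02 and 8.65 with OTA. Every OTA library was below every control, and the log2 difference was -0.77 (SE 0.15, limma adjusted p = 0.00417). NDUFAF1, an early complex I assembly factor, rose from 4.97 ± 1.105 to 8.51 ± 1.01 FPKM (log2 0.68, SE 0.17, limma adjusted p = 0.0168). COX7A2L, which links complexes III and IV in supercomplexes and is counted with the assembly factors, was at 288, 274 and 271 FPKM in the controls and 381, 398 and 433 with OTA (log2 0.54, SE 0.15, limma adjusted p = 0.0307). The eleventh call was the antisense entry NDUFV2-AS1, at 2.92 ± 0.781 FPKM in the controls and 0.760 ± 0.498 with OTA. It shares its deposited locus with NDUFV2, and reads of the pair cannot be told apart without strand. Of the 11 calls, those of ATP5C1, NDUFB4 and COX19 held in all 23 alternatives tried, and the other 8 were each lost in 2 to 7. In hg19, as deposited, ATP5C1 lies at chr10:7830091-7849762, NDUFB4 at chr3:120315126-120321258, COX19 at chr7:1004484-1015235 and SDHC at chr1:161284164-161337673.

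The promoters of both stable rises, of SDHD and of the stable fall are printed because NRF1 and GABP, transcription factors known for binding the promoters of respiratory genes, have short recognisable motifs. Each is 300 bases long, ends just past the transcript start and is written 5′ to 3′ on the gene's strand, from RefSeq on GRCh38.p14. Capitals mark matches of 4 motifs on either strand: GCGCATGC (NRF1 core), CCGGAAG (GABP), AAGATGGCG (YY1) and TGACGTCA (CRE). ATP5C1 lies at chr10:7787927-7788226 (+), NDUFB4 at chr3:120596086-120596385 (+), SDHD at chr11:112086623-112086922 (+) and COX19 at chr7:975500-975799 (-).
ATP5C1: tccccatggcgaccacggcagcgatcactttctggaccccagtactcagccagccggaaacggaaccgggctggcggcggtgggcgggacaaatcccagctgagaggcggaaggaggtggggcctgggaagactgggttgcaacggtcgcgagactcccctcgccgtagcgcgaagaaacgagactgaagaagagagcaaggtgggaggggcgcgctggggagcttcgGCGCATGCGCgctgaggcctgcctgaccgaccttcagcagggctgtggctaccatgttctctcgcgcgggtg
NDUFB4: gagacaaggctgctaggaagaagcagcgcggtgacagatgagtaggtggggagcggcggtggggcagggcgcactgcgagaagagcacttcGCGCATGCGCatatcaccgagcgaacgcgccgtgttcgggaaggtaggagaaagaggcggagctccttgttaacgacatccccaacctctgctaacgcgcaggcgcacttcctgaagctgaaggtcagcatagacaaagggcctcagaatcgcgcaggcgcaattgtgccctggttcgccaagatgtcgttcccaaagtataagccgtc
SDHD: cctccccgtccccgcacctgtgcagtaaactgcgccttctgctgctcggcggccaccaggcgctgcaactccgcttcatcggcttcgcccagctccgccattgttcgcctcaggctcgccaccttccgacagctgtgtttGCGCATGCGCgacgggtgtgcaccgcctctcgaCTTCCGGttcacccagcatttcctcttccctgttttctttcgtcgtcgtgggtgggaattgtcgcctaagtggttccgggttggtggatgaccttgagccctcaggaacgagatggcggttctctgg
COX19: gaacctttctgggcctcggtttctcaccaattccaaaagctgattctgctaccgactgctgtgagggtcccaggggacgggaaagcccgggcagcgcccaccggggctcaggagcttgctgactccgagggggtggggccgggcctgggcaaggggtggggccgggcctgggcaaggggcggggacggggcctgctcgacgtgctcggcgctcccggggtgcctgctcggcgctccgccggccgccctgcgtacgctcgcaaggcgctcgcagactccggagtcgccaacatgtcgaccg
ATP5C1, NDUFB4 and SDHD each hold GCGCATGCGC, in which the NRF1 core matches on both strands with overlap. Its first base is at -22 in ATP5C1, -159 in NDUFB4 and -110 in SDHD. SDHD also holds the GABP letters in reverse, from -77, and COX19 holds none of the 4 in this window. SDHD was not called in OTA against control, and no rule given here covers its choice. The printed promoters are therefore no sample of the subunits. Promoters were found for 63 of 75 subunits, taking the first listed per gene. The NRF1 core was in 13 of them (20.6%), against 3.27% of all 27305 genes' promoters and 5.63% of those of tested genes. GABP letters were in 30.2% of subunit promoters, against 10.7% of all and 19.4% of tested genes' promoters. The YY1 letters were in 12.7%, against 1.85% and 3.99%, and the CRE letters in 7.94%, against 1.98% and 3.29%. The median log2 difference of OTA from control was 0.29 over 12 tested subunits with the NRF1 core and 0.31 over 50 without it. It was 0.29 over 18 with and 0.36 over 44 without the GABP letters, 0.33 over 8 and 0.31 over 54 for YY1, and 0.26 over 4 and 0.31 over 58 for CRE. These differences were not tested. A match is a description of letters, not a bound site.

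The genes around the chain were counted from lists of related genes outside the naming rule, beside the 17.7% of all genes that were called (4.82% higher and 12.9% lower). Without combined replicate 3, that share was 33.8% (14.7% higher and 19% lower). Of 19 genes of the citric acid cycle and pyruvate dehydrogenase, 3 rose with OTA and none fell, and 5 rose and 1 fell without combined replicate 3. Citrate synthase (CS) was at 120 ± 5.81 FPKM in the controls and 154 ± 9.24 with OTA (log2 0.35, SE 0.11, limma adjusted p = 0.0389), and SUCLG2, a succinyl-CoA ligase subunit, had a log2 difference of 0.56 (SE 0.16, limma adjusted p = 0.0286). Of 37 further assembly factors, 3 rose and 2 fell, and 7 rose and 3 fell without that library. The falls were the copper chaperone SCO2, from 27.99 ± 4.14 to 12.9 ± 1.45 FPKM (log2 -1.05, SE 0.19, limma adjusted p = 0.0026), and COA7, from 20.8 ± 0.598 to 8.11 ± 1.88 FPKM (log2 -1.28, SE 0.21, limma adjusted p = 0.00144). The largest rises were COA5 (log2 0.70, SE 0.19) and UQCC1 (log2 0.58, SE 0.10).

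The list of electron carriers and donors also held genes of ubiquinone synthesis and of mitochondrial membrane transport. Of its 25 tested genes, 2 rose and 1 fell, beside 17.7% of all genes called. These calls, named below, were of the added kinds and not of electron carriers or donors themselves. Without combined replicate 3, 7 rose and 1 fell, beside 33.8% of all genes. COQ7, an enzyme of ubiquinone synthesis, fell from 11.8 ± 1.29 to 6.79 ± 0.525 FPKM (log2 -0.72, SE 0.16, limma adjusted p = 0.0106). VDAC1, the outer membrane channel, rose by a log2 difference of 0.42 (SE 0.12) and the ADP/ATP carrier SLC25A5 by 0.36 (SE 0.11). Of 17 regulators of mitochondrial biogenesis, none rose and 5 fell, with a median of -0.23, where 4.82% of all genes were higher and 12.9% lower. Without combined replicate 3, which adds only to the estimate of spread, 3 rose and 7 fell, where 14.7% of all genes were higher and 19% lower. The PGC-1-related coactivator PPRC1 went from 14.5 ± 0.805 to 4.32 ± 0.541 FPKM (log2 -1.55, SE 0.21, limma adjusted p = 0.000343). MTERF1, a mitochondrial transcription termination factor, went from 12.7 ± 1.18 to 5.33 ± 0.365 FPKM (log2 -1.11, SE 0.30, limma adjusted p = 0.0258). 

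CW14 against control concerns the bacteria alone. None of the 74 subunits was called, 1 had an unadjusted p under 0.05, and the median log2 difference was -0.08 against -0.02 for all genes. Over all 99 members, none rose and 1 fell, where 0.364% of all genes were called. An unadjusted p under 0.05 was found in 3 members, beside 858 of 12928 genes. With combined replicate 3 left out, again none rose and 1 fell, and 0.951% of all genes were called (0.526% lower). An unadjusted p under 0.05 was then found in 8 members, beside 1919 of 12928 genes. The 3 CW14 libraries lay above all controls in 1 subunit and below in 7, against 9.66% and 10.9% of all genes. The medians per library were 0.00, -0.11 and -0.12. The fall was COX20, a chaperone of the complex IV subunit COX2, at 42.0, 20.3 and 28.2 FPKM in the controls and 9.95, 8.01 and 12.4 with CW14. All CW14 libraries were lower, with a log2 difference of -1.45 (SE 0.26, limma adjusted p = 0.0433). The call was lost in 13 of 23 alternatives, with adjusted p up to 0.179, while the log2 difference stayed between -1.69 and -1.19. COX20 was at 32.5, 37.4 and 43.5 FPKM with OTA and 37.3, 22.2 and 23.9 in the combined group, and both overlapped the controls.

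Combined against OTA asks what adding the bacteria did to toxin-treated cells, and its direction for the subunits depended on 1 library. With all libraries, 2 of 74 subunits passed upward, 1 of them NDUFB2, which entered the test only through its values in the combined group, and 4 fell. The median log2 difference was 0.10, and 16% of all genes were called (7.79% higher and 8.22% lower). Over all 99 members, 5 fell, with the same 2 passing upward. The libraries of both groups did not overlap in 16 of 74 subunits, 8 in each direction, against 34.4% of all genes (17.8% higher and 16.6% lower). Leaving out combined replicate 3, they did not overlap in 8 subunits upward and 24 downward, against 26.2% and 25% of all genes. The same 2 subunits then passed upward and 11 fell, the median was -0.19, and 21.2% of all genes were called (9.41% higher and 11.8% lower). The median then lay below 0 in each of the 5 complexes, from -0.30 for complex II to -0.11 for complex I. Against the control mean, the subunit median was 0.34, 0.09 and 1.099 in combined replicates 1 to 3, beside 0.28 to 0.40 with OTA. By this median, replicate 1 thus lay at the OTA libraries, replicate 2 near the controls and replicate 3 above all. The complexes differed in replicate 2, with medians from -0.23 for complex IV to 0.18 for complex V. In it, 32 of the 74 subunits were above all 3 controls, against 6 to 14 in the CW14 libraries.

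The falls are described with each library. ATP5C1 was at 39.7, 36.0 and 28.2 FPKM in the combined group, below all OTA libraries (53.4 to 55.9) and around the control level. Its log2 difference was -0.66 (SE 0.14, limma adjusted p = 0.0107), and -0.53 (adjusted p = 0.00468) without combined replicate 3. COX7A2L was at 235, 195 and 231 FPKM against 381 to 433 with OTA, a log2 difference of -0.88 (SE 0.15, limma adjusted p = 0.00572), and -0.91 without that replicate. Every combined library was also below every control for this gene.

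NDUFB4 was at 161, 154 and 124 FPKM, between the OTA libraries and the controls. Its log2 difference from OTA was -0.39 (SE 0.12, limma adjusted p = 0.0444), and -0.28 (adjusted p = 0.0263) without combined replicate 3. The call was lost in 15 of 23 alternatives, with log2 differences from -0.47 to -0.23 and limma adjusted p up to 0.35. SDHD was at 299, 288 and 176 FPKM against 370, 418 and 430 with OTA (log2 -0.71, SE 0.19, limma adjusted p = 0.0257; without combined replicate 3, -0.46 and 0.0131). This call was lost in 7 of 23, with log2 differences from -0.84 to -0.42 and limma adjusted p up to 0.244. NDUFA5, an accessory subunit of the quinone-reducing part of complex I, was at 14.6, 17.6 and 14.4 FPKM against 22.6, 24.2 and 29.3 (log2 -0.67, SE 0.16, limma adjusted p = 0.0193; without combined replicate 3, -0.62 and 0.0232). Its call was lost in 5 of 23 alternatives, and the GC and length correction took the log2 difference to -0.25 (limma adjusted p = 0.216, and 0.256 with a replicate block). In all 5 genes that fell, no combined library reached an OTA library.

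ATP5J2, a membrane subunit of the ATP synthase, rose. It was at 31.9, 30.8 and 25.4 FPKM with OTA and 50.7, 48.6 and 51.4 in the combined group, a log2 difference of 0.76 (SE 0.17, limma adjusted p = 0.0146). Without combined replicate 3 it was 0.74 (adjusted p = 0.0154), and the combined libraries were above all the others. Its deposited locus, chr7:99006599-99063824 in hg19, is that of a readthrough entry with PTCD1. NDUFB2 was at 0, 0 and 1.13 FPKM with OTA and 2.99, 2.12 and 2.92 in the combined group. It passed the filter on low values through that group alone, so its values are a description and its passing the threshold supports nothing. Each of the 7 calls was lost when the combined and OTA groups were fitted alone, where no member was called. The comparison shares its OTA libraries with OTA against control, and their values are set side by side here.

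**Figure D4:**
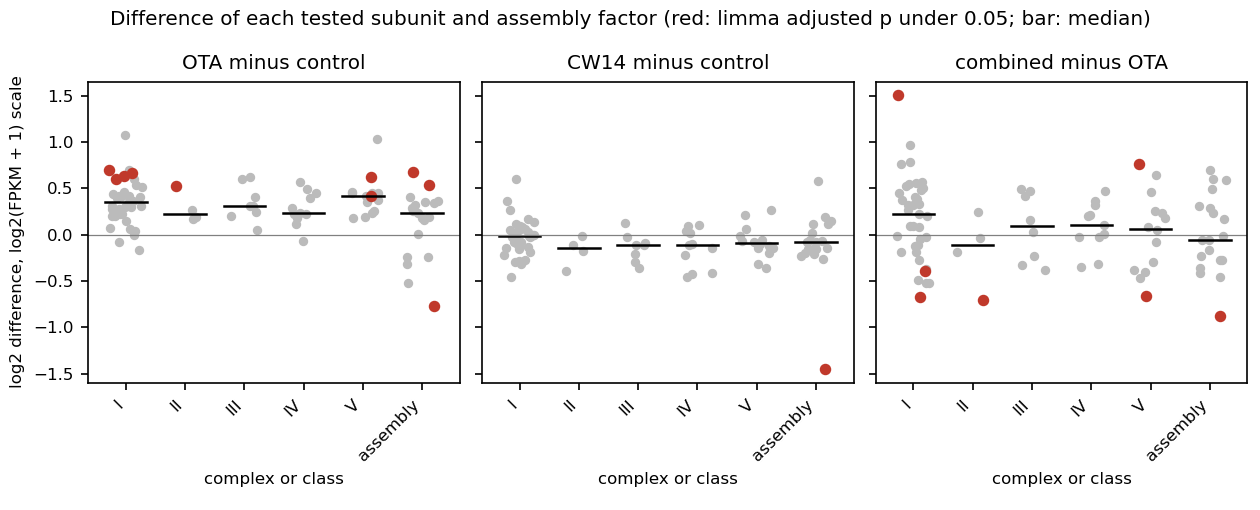
Fitted log2 difference of each tested subunit (by complex) and assembly factor for 3 of the comparisons, with calls at a limma adjusted p under 0.05 in red and the median of each class as a bar. The OTA panel sits mostly above 0 with 7 subunits called higher, the CW14 panel has the single call COX20 at -1.45, and the combined panel scatters on both sides of 0.

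The combined group against control concerns both agents together, and the combined group against CW14 concerns the toxin with bacteria present. Against control, 19 of 74 subunits rose and 1 fell, with a median log2 difference of 0.44, and over all 99 members 21 rose and 3 fell, where 28.8% of all genes were called. NDUFB2 is among these rises, with the limit given above. The combined libraries lay above all controls in 29 subunits and below in 2, and 41.9% of all genes had ranges apart. Without combined replicate 3 these were 29 and 6 subunits, against 27.7% and 29.9% of all genes. The called counts over members without it were again 21 and 3, with 32.7% of all genes called, and the subunit median was 0.22. Against CW14, 28 subunits rose and none fell, with a median of 0.55, and 31 members rose and 1 fell, where 32.3% of all genes were called. The ranges were apart upward in 35 subunits and downward in none, against 19.9% and 21.9% of all genes, and without combined replicate 3 in 37 and none, against 27.2% and 27.7%. Without combined replicate 3, 32 members rose and 1 fell, with 33.7% of all genes called and a subunit median of 0.27. Complex II is an exception in direction, with a median against control of 0.29 that became -0.09 without that library. Both comparisons share the combined libraries.

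Of the 24 calls against control, those of ATP5J2, COX19, NDUFA11 and NDUFV1 held in all alternatives, and the last pair is named after their values were seen. NDUFV1 was at 47.6, 47.4 and 54.7 FPKM in the combined group, above all 3 OTA libraries (41.8 to 43.5). NDUFA11, a membrane-arm subunit of complex I, was at 15.3, 10.3 and 21.5 FPKM against 6.28, 7.56 and 5.80 in the controls. COX19 was at 8.74, 8.89 and 10.9 FPKM, beside 8.65 to 11.02 with OTA, and its difference between these groups was -0.06 (SE 0.15, limma adjusted p = 0.823). The ranges overlapped, which does not show that the levels are equal. Without combined replicate 3 the log2 differences from control were 0.76 for NDUFV1, 0.85 for NDUFA11 and -0.91 for COX19, beside 0.83, 1.096 and -0.82 with it.

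**Figure D5:**
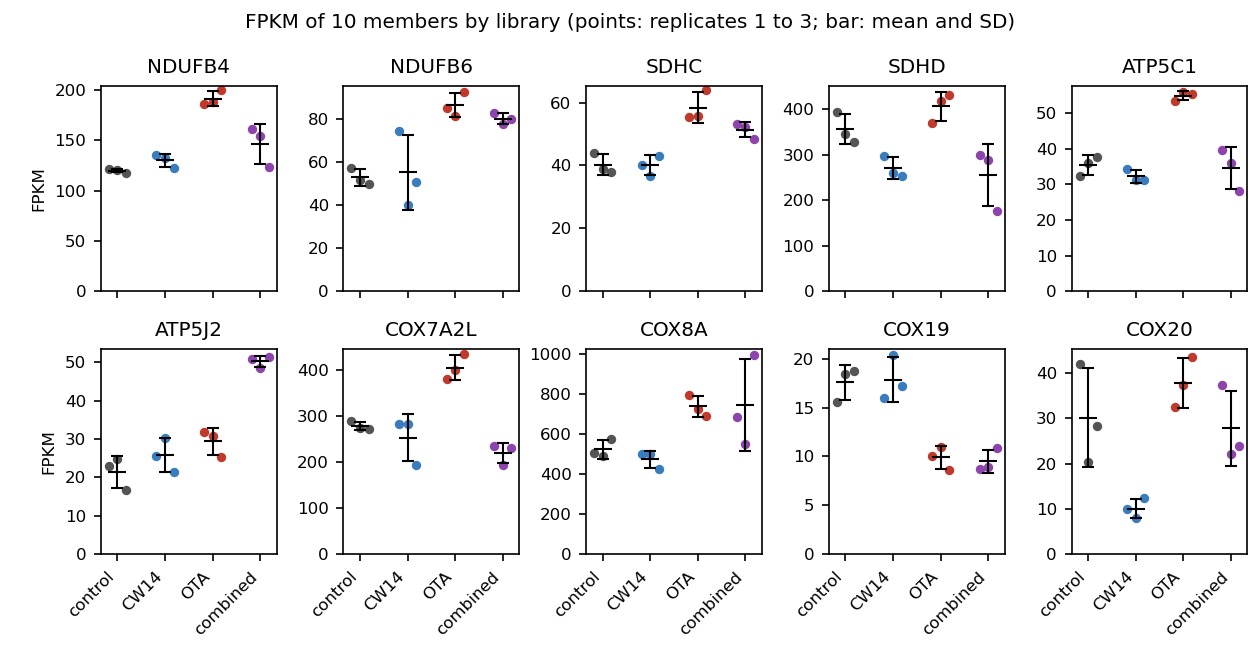
FPKM of 10 members in each library (points), with the mean and SD of 3 libraries per group; each axis starts at 0. ATP5C1, NDUFB4 and COX7A2L are highest with OTA and lower in the combined group, ATP5J2 is highest in the combined group (48.6 to 51.4 FPKM), COX19 is low in both groups with OTA, and COX20 is low with CW14 alone (8.01 to 12.4 FPKM).

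The interaction asks whether OTA differed in effect with and without CW14. No member was called in limma, where 3.33% of all genes were called. An unadjusted p under 0.05 was found in 11 of 99 members, beside 3198 of 12928 genes. With sample quality weights 28 members were called, with no share of all genes set beside them here. Without combined replicate 3, 3 members were called, all lower, and 12.3% of all genes. They were COX7A2L (log2 -0.76), COX7C (-0.64) and NDUFB4 (-0.40), the last pair chosen after their values were seen. By the F test for any difference among the 4 groups, 37 of 99 members were called (37.4%), beside 37.5% of all genes. The share was 43.2% for complex I, 50% for II, 37.5% for III, 9.09% for IV, whose single called subunit was COX8A, and 57.1% for V. With combined replicate 3 left out, 51 members were called (51.5%, beside 50.4% of all genes), with 56.8%, 50%, 75%, 36.4% and 71.4% of complexes I to V.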

How the data were processed

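The authors deposited 1 table of FPKM values per gene for all 12 libraries. Per the labels' protocols, libraries came from the NEBNext Ultra RNA kit and were read as 150-base pairs. TopHat2 2.0.13, cutadapt 1.10, Cuffdiff, Cuffnorm and Cufflinks 2.2.1 are listed, with the build hg19, per the submitters' processing notes, and the role of each is not given in the sources used here. Strand use and absolute depth are unknown, and FPKM of short or duplicated genes depends on how reads were assigned.

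Values were taken as log2(FPKM + 1), so differences of low genes are understated. The 12928 genes whose average across all libraries reached 1 FPKM were fitted with limma 3.58.1 in R 4.3.3, with group means over all 4 groups, a trended variance and 8 residual degrees of freedom. Benjamini-Hochberg adjustment covered the whole tested table, and genes were called under 0.05. The fit was tested on simulated data. Alternatives changed the pseudocount, filter, scaling, weights, GC and length correction, replicate block, groups fitted and libraries kept. Leaving out combined replicate 3 also for complex medians, and sample weights for them, and F test counts per complex and ranges apart without that library, were chosen after seeing the data.

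Members and lists were chosen with earlier results of these data known. Named by rule were, per complex and for assembly factors, the 3 called members with the largest difference in OTA or CW14 against control or combined against OTA, the highest and lowest subunit of each complex, SDHA to SDHD, the paralog sets, and 2 called genes per direction from each related list. Others were named after their values were seen.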

Additional observations from a re-analysis of the deposited data

Results flagged for a closer look

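NDUFA4L2, a paralog of a complex IV subunit that is known to be induced by low oxygen, was below the filter on low values and entered no comparison. It was flagged because all libraries of a treated group were above every control. Its place above the controls therefore restates that choice. The fit given below uses the same values, which are near the floor, and adds no support. It was listed at 0.2, 0 and 0 FPKM in the controls. Its mean was 0.741 FPKM with OTA and 1.205 FPKM in the combined group. The libraries had 0.622, 0.910 and 0.691 FPKM with OTA and 0.621, 0.890 and 2.10 in the combined group, all above the controls. In the limma fit with no filter, the log2 difference of OTA from control was 0.71 (adjusted p = 0.0597).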

How the results depend on the processing

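Depth is known only as a ratio between libraries, and with 3 libraries a group the median SE of a log2 difference of OTA from control was 0.21. For OTA against control, 11 members were called. The count was 18 with median-centred libraries, 20 with upper-quartile scaling, 51 with sample weights and 38 with only the compared groups, and 4 to 32 when leaving out 1 library (32 without combined replicate 3, 4 without control replicate 2 or OTA replicate 3). For CW14 against control (1 called) it was 0 with no filter, quantile normalization, upper-quartile scaling or only the compared groups, 2 with weights, and 0 to 1 leaving out 1 library. For combined against OTA (7) it was 54 with weights, 11 with the GC and length correction with or without a replicate block, 0 with only the compared groups, and 3 to 22 leaving out 1 library (22 without combined replicate 2, 16 without combined replicate 3, 3 without OTA replicate 2 or 3). For combined against control (24) it was 43 with quantile normalization, 71 with weights, 8 with only the compared groups, and 9 to 49 leaving out 1 library (49 without combined replicate 2, 9 without control replicate 1 or 3, 11 without control replicate 2). For combined against CW14 (32) it was 63 with weights, 6 with only the compared groups, and 16 to 53 leaving out 1 library (53 without combined replicate 2, 16 and 17 without CW14 replicates 2 and 3). The interaction (0) had 28 with weights and 0 to 3 leaving out 1 library, and the F test (37) had 88 with weights and 21 to 55 leaving out 1 library. ATP5O in combined against OTA turned to a log2 difference of -0.50 with weights (limma adjusted p = 0.0189). The cause of these changes was not tested. No share of all genes is set beside the counts under these settings here, so they are not read as particular to the members. The replicate numbers did not pair the libraries: 1 of 18 same-numbered pairs had deviations correlated above 0.1 (range -0.150 to 0.154), and 1 of 12 libraries correlated best with its own number. With the replicate block the counts were 10, 1, 6, 20 and 30 in the 5 comparisons, 0 for the interaction and 29 for the F test.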
